A study of Mus musculus with 14 samples.

Results

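The EphA receptors and ephrin-A ligands were described here in the hippocampus of neonatal mice. They were taken as 10 genes of this receptor and ligand system, chosen by symbol from the table of estimated counts. The 4 other genes of the system, Epha1, Epha2, Efna1 and Efna4, are given further below. The 10 members were the receptors Epha3, Epha4, Epha5, Epha6, Epha7, Epha8 and Epha10, and the ligands Efna2, Efna3 and Efna5. All 10 of 10 were among the 36118 genes of the table and among the 16637 that passed the filter on low counts. The study asked whether deletion of gasdermin D (GSDMD), the pore-forming protein that executes pyroptosis, alters the response of the neonatal brain to high oxygen, and polyadenylated RNA was sequenced from 1 library per mouse at postnatal day 15. The 4 groups were 4 wildtype mice kept in room air (WT-RA), 4 wildtype mice kept in 85% O2 (WT-O2), 3 GSDMD knockout mice kept in room air (KO-RA) and 3 knockout mice kept in 85% O2 (KO-O2), with the exposure running from postnatal day 1 to day 14. The knockout is a global one made by CRISPR as a small deletion in an exon of Gsdmd, and the paper describes homozygous knockouts and their wildtype littermates from heterozygote matings. The labels call the strain C57/BL6, and all groups share that background. WT-O2 mouse 4 carries a hyperoxia title but a room air entry in its treatment field, and it was analysed by its title. Mice are numbered within a group only to name them.

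EphA receptors are receptor tyrosine kinases that bind ephrin-A ligands, which are held on the surface of neighbouring cells by a lipid anchor. Binding sends a forward signal through the receptor and a reverse signal through the ligand, and mostly causes axons and dendrites to withdraw, through regulators of the actin cytoskeleton. In the brain the system is known for setting up topographic maps, and in the hippocampus EphA4 on dendritic spines and ephrin-A3 on astrocytes are known to shape spines and the uptake of glutamate.

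The sequence just before the transcription start is shown for the 4 members that passed the test in both genotype comparisons below, Epha3, Epha6, Epha10 and Efna5 (2 receptors that were higher in knockout mice, 1 that was lower and 1 ligand that was lower). The 250 bases come from RefSeq on GRCm38.p6, 5′ to 3′ on the strand of the gene: chr16:63864176-63864425 on the minus strand for Epha3, chr16:60605532-60605781 on the minus strand for Epha6, chr4:124881535-124881784 on the plus strand for Epha10 and chr17:62881318-62881567 on the minus strand for Efna5. Capitals mark matches, on either strand, to the GC box GGGCGG, which reads as CCGCCC on the opposite strand, and to the neurogenic E-box CAGATG.
Epha3: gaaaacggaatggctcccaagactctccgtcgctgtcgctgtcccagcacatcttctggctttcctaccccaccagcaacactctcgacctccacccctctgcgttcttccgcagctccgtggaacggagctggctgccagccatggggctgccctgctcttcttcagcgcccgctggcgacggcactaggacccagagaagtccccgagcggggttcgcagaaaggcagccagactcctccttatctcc
Epha6: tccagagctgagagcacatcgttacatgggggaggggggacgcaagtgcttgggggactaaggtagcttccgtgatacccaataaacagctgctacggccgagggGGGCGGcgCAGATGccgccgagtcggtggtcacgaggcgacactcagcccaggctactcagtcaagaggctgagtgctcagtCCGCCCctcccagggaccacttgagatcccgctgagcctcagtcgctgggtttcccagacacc
Epha10: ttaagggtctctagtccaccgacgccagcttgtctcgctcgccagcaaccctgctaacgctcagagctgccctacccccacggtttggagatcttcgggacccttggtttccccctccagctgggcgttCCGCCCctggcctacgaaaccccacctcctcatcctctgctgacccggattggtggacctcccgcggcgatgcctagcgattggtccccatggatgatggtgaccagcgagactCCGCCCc
Efna5: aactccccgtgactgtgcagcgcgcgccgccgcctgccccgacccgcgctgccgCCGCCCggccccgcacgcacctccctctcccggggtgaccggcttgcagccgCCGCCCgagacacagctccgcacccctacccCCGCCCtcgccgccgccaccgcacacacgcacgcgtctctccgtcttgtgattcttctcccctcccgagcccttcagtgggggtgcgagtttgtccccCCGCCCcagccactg
A GC box was present in 9 of the 10 members' promoters, against 32.7% of 27025 mouse promoters of the same length, and Epha3 was the member without one. The E-box was present in Epha6 alone, against 14.6% of all promoters, and the hypoxia response core ACGTG was present in Epha4 and Epha8, against 16.4%. The cAMP response element TGACGTCA and the TATA box TATAAA were present in 0 members, against 1.56% and 12.9% of promoters. The 4 printed windows were 62.8% (Epha3 and Epha6), 63.6% (Epha10) and 74.8% (Efna5) G or C, and the median of all promoters was 52%. A match to letters is only a description, and the GC-rich windows include both Epha6, which was higher in knockout mice, and Efna5, which was lower.

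The libraries were alike in depth, with totals of 27272270 to 28257496 estimated counts. Gsdmd had 41 to 63 counts in the wildtype libraries and 22 to 42 in the knockout libraries, and since the allele is a small deletion a gene count does not check it. Markers of hippocampal fields were present in every library. Levels are given in CPM (counts scaled to a common library total, adjusted by TMM). The 4 CA1 markers summed to 329 to 475 CPM (median 419.9) in the 8 wildtype mice and to 549 to 611 CPM (median 591) in the 6 knockout mice, and the 4 dentate gyrus markers summed to 50.2 to 206 CPM (median 164) and 229.7 to 330.5 CPM (median 299). The 3 CA3 markers overlapped between genotypes, at 92.2 to 117 CPM against 100.01 to 125 CPM, and in both genotype comparisons Grik4 was called higher and Coch lower. The sums of 9 striatal markers were lower in all knockout mice, at 324 to 759 CPM (median 538) in wildtype mice against 143 to 237 CPM (median 163). Those of 9 thalamic markers had a lower median in knockout mice but overlapped, at 105 to 715 CPM (median 237) against 87.2 to 113 CPM (median 108). So did those of 5 oligodendrocyte markers, at 4487 to 18162 CPM (median 10411) against 3035 to 5356 CPM (median 4101). The sums of 5 neocortical layer markers overlapped with close medians, at 235 to 362 CPM (median 283) against 198 to 321 CPM (median 281). Single markers in this sum went opposite ways. Mean Cux2 was 78.4 CPM in WT-RA and 40.2 CPM in KO-RA, and mean Rorb 19.5 and 10.8 CPM. Mean Fezf2 was 38.2 and 52.1 CPM and mean Tshz2 69.7 and 104.8 CPM, both with overlap. Of the 5, 2 were called lower in room air and 1 in hyperoxia, beside 6.7% and 4.35% of all genes tested, and 0 higher. The only one of the 31 CA1, dentate gyrus, striatal, thalamic and oligodendrocyte markers at 0 in any library was the thalamic gene Gbx2, in 1 knockout library. The labels also number the wildtype and the knockout mice in separate ranges, so genotype and whatever those numbers mark cannot be told apart. In whole tissue, fewer cells of a type and less RNA per cell cannot be told apart either.

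Per length of the gene's exons, the receptors of the WT-RA hippocampus were led by Epha4, a receptor that binds ephrins of both classes, at a mean of 32.7 CPM per kb (22.8 to 38.4 over the 4 mice). Epha7 and Epha5 came next at 8.43 (5.45 to 9.94) and 8.04 (6.30 to 9.80) CPM per kb, and their ranges overlapped. Epha6, at 5.46 (4.61 to 6.19) CPM per kb, overlapped Epha7 and lay just below the lowest Epha5 mouse. Epha10, which lacks kinase activity, and Epha8 followed at 3.59 (3.02 to 3.89) and 3.49 (2.05 to 5.28) CPM per kb, overlapping each other and, for Epha8, also Epha6, and Epha3 was lowest at 1.75 (1.59 to 1.96), just below the lowest Epha8 mouse. Among the ligands the levels per kb were separate from each other in WT-RA, with Efna3 at 18.9 (17.8 to 20.1), Efna2 at 9.49 (8.62 to 10.4) and Efna5 at 3.56 (2.89 to 4.76). In KO-O2 mice the mean of Efna5 was 1.23 CPM per kb and that of Epha6 was 11.04, so Epha6 stood close to Epha5 (10.9) and Epha7 (11.2) there.

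**Figure D1:**
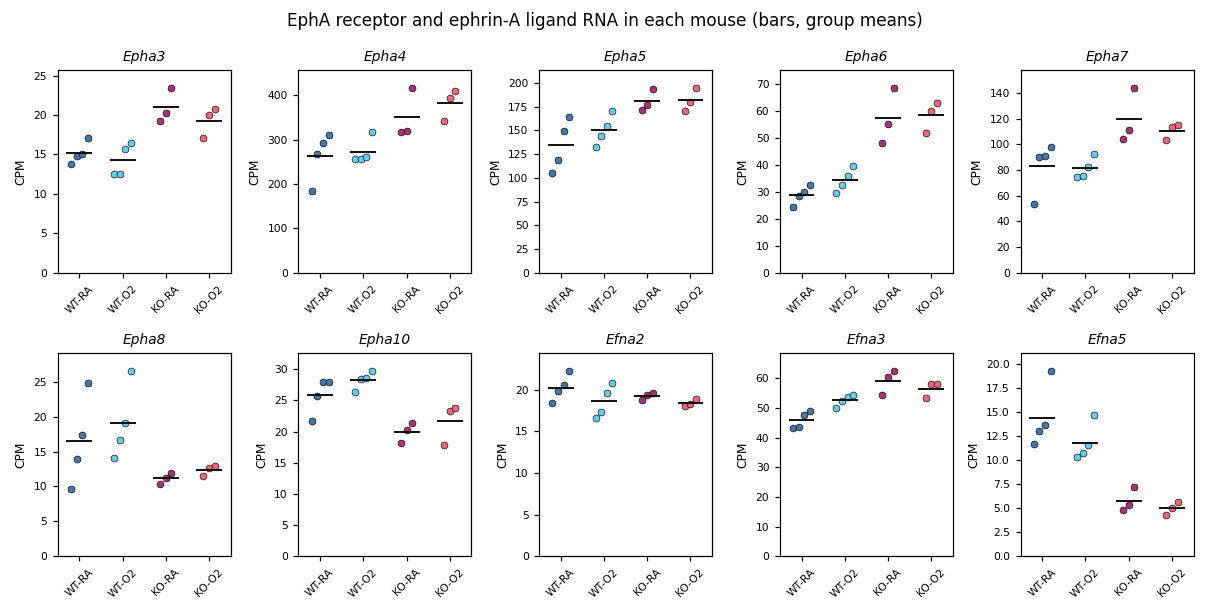
Level of each EphA receptor and ephrin-A ligand in CPM (y axis, from 0, with its own scale in each panel) in the mice of the 4 groups (x axis). Points are mice and bars are group means; Epha3 to Epha7 sit higher in all 6 knockout mice than in all 8 wildtype mice, Efna5 sits lower, and Epha8, Epha10, Efna2 and Efna3 overlap.

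The first question was how the receptors and ligands differed between genotypes in room air. In KO-RA against WT-RA hippocampi, 4 receptors rose, Epha3, Epha5, Epha6 and Epha7, together with the ligand Efna3, and the receptor Epha10 and the ligand Efna5 fell. To be called, a gene had to be at least 25% above or 20% below the other group, with an unadjusted p below 0.05 and a q below 0.1, where q is the p adjusted over all genes tested by Benjamini-Hochberg. That made 7 of 10 members called, 5 higher and 2 lower, beside 10.4% of all genes tested (3.75% higher and 6.7% lower). Of the 4 other genes of the system, 0 were called. Of the members, 6 were higher and 2 lower with no overlap between the groups, beside 19.6% of all genes (8.62% higher and 11% lower). The median log2 fold change of the 10 members was 0.39, and that of all genes tested was -0.01.

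Epha6, a receptor expressed in the developing cortex and hippocampus, was at 28.3, 32.8, 30.1 and 24.4 CPM in the WT-RA mice and at 68.5, 55.0 and 48.3 CPM in the KO-RA mice. Every knockout mouse was well above every wildtype mouse. Epha6 rose by 0.99 on the log2 scale (SE 0.13, q = 0.00034), a ratio of 1.98.

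Epha3, a receptor that guides axons and binds ephrin-A5 strongly, was at 14.8, 15.1, 17.0 and 13.8 CPM in WT-RA and at 23.4, 19.3 and 20.2 CPM in KO-RA. The groups did not overlap, and the knockout mouse 1 was highest. Epha3 rose by 0.46 on the log2 scale (SE 0.12, q = 0.020). Epha5, a receptor used in limbic and retinal maps, was at 119, 149.7, 164 and 105 CPM in WT-RA and at 194, 172 and 177 CPM in KO-RA. The gap between the highest wildtype and the lowest knockout mouse was small beside the spread of the wildtype mice. Its log2 fold change was 0.43 (SE 0.13, q = 0.045).

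Epha7, which acts in cortical progenitors and in the maps of corticothalamic axons, was at 91.0, 90.2, 98.2 and 53.8 CPM in WT-RA and at 144, 104.2 and 111 CPM in KO-RA. WT-RA mouse 4 lay far below the other wildtype mice, and no wildtype mouse reached the knockout mice. The log2 fold change was 0.52 (SE 0.16, q = 0.057). Epha4 was at 293, 268, 309.6 and 184 CPM in WT-RA and at 416, 318 and 319.7 CPM in KO-RA. The groups did not overlap, but WT-RA mouse 3 lay within 10 CPM of the lowest knockout mouse, and with a log2 fold change of 0.41 (SE 0.15) and a q of 0.102 Epha4 was not called. It was called without WT-RA mouse 1 or 3 or WT-O2 mouse 1 (q = 0.052 to 0.095). Epha4 was also called by DESeq2 (0.42, q = 0.046), without a filter on low counts (q = 0.069) and with at least 10 counts in every library (q = 0.096). The same held with WT-O2 mouse 4 taken as room air (q = 0.071).

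WT-RA mouse 4 was the lowest WT-RA mouse for all 7 receptors and also had the lowest dentate gyrus marker sum of the series, 50.2 CPM. KO-RA mouse 1 was the highest of its group for Epha3, Epha4, Epha5, Epha6 and Epha7 and lowest for Epha8 and Epha10, and it had 36.9 CPM of summed choroid plexus markers, against 3269 and 3142 CPM in the other KO-RA mice. KO-O2 mouse 2 was also low in these markers, at 106 CPM against 1701 and 3394 CPM in its group. Among the receptors it was the highest of its group for Epha5, Epha7 and Epha10 only. Without KO-RA mouse 1 the members called went from 7 to 3, with Epha3 (0.38, q = 0.115), Epha5 (0.37, q = 0.166), Epha7 (0.37, q = 0.259) and Epha10 (-0.31, q = 0.183) no longer called. Without WT-RA mice 1 and 4 and WT-O2 mouse 4 together, left out after seeing the data for their extreme thalamic or dentate sums, Epha3 (0.40, q = 0.114), Epha5 (0.22, q = 0.171) and Epha7 (0.36, q = 0.113) were not called, and with only the KO-RA and WT-RA mice in the fit Epha5 (q = 0.118) and Epha7 (q = 0.162) were not called.

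The lower members in room air were Efna5, Epha10 and, without passing the test, Epha8. Efna5, a ligand known for repelling axons in the retinal and thalamocortical maps, was at 11.6, 13.6, 19.2 and 13.0 CPM in WT-RA and at 4.79, 5.32 and 7.22 CPM in KO-RA. All 3 knockout mice were below the lowest wildtype mouse. Efna5 fell by 1.31 on the log2 scale (SE 0.19, q = 0.00084), to a ratio of 0.403, the largest change of the 10 members.

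Epha10 was at 27.9, 28.001, 25.7 and 21.7 CPM in WT-RA and at 18.1, 21.4 and 20.2 CPM in KO-RA. The highest knockout and the lowest wildtype mouse were nearly level, and the rest were apart. Its log2 fold change was -0.37 (SE 0.11, q = 0.043), and it was also not called without WT-RA mouse 1 or 2 or KO-RA mouse 3 (q = 0.101 to 0.120). Epha8, a receptor best known from the midbrain and its axons, was at 24.9, 17.4, 14.0 and 9.65 CPM in WT-RA and at 10.4, 11.2 and 11.99 CPM in KO-RA. The wildtype mice spread over the whole knockout range, and the log2 fold change of -0.55 (SE 0.25, q = 0.203) was not called, though it was without WT-RA mouse 4 (-0.74, q = 0.056). Epha8 was also called with WT-O2 mouse 4 taken as room air (q = 0.079) and without WT-RA mice 1 and 4 and WT-O2 mouse 4 (q = 0.057).

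The ligand Efna3 was at 43.7, 43.3, 49.0 and 47.6 CPM in WT-RA and at 62.4, 54.5 and 60.4 CPM in KO-RA. Its replicates were the closest of the members, with a within-group SD of 0.08 in log2 CPM, and the groups were apart. Efna3 rose by 0.36 on the log2 scale (SE 0.06, q = 0.0029). Efna2, which works with Efna5 in the retinal map, was at 18.4 to 22.2 CPM in WT-RA and at 18.8 to 19.6 CPM in KO-RA, with a log2 fold change of -0.07 (95% interval -0.25 to 0.11), so the interval held no change beyond the fold used for calling in either direction.

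The genotype comparison was then made within hyperoxia, in KO-O2 against WT-O2 mice, which are other animals than those in room air. Here Epha3, Epha4 and Epha6 rose, and Epha10 and Efna5 fell. That made 5 of 10 members called, 3 higher and 2 lower, beside 6.86% of all genes tested (2.51% higher and 4.35% lower). Of the 4 other genes of the system, 1 was called, Efna4, which was higher. Of the members, 5 were higher and 3 lower with no overlap, beside 19% of all genes (8.53% higher and 10.5% lower). The median log2 fold change of the members was 0.19, and that of all genes was -0.01.

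Epha6 was at 35.9, 32.4, 39.8 and 29.6 CPM in WT-O2 and at 51.9, 60.1 and 63.2 CPM in KO-O2. The groups were again apart. The log2 fold change was 0.76 (SE 0.13, q = 0.0032). Efna5 was at 14.6, 11.5, 10.3 and 10.7 CPM in WT-O2 and at 4.22, 5.65 and 5.03 CPM in KO-O2. No knockout mouse came near the lowest wildtype mouse, and the log2 fold change was -1.25 (SE 0.20, q = 0.0022).

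Epha4 was at 317, 260.5, 255 and 256 CPM in WT-O2 and at 341, 393 and 410.2 CPM in KO-O2. WT-O2 mouse 1 stood above its group but below the knockout mice. Epha4 rose by 0.49 on the log2 scale (SE 0.15, q = 0.077). Epha3 was at 16.5, 12.5, 12.5 and 15.7 CPM in WT-O2 and at 17.1, 20.0 and 20.7 CPM in KO-O2. KO-O2 mouse 1, the lowest of its group for Epha3, Epha4, Epha5, Epha6 and Epha7, was only just above WT-O2 mouse 1. Its log2 fold change was 0.43 (SE 0.12, q = 0.044).

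Epha10 was at 26.3, 28.6, 29.7 and 28.5 CPM in WT-O2 and at 23.4, 23.8 and 17.9 CPM in KO-O2. All knockout mice were below all wildtype mice, KO-O2 mouse 3 furthest. Epha10 fell by 0.38 on the log2 scale (SE 0.11, q = 0.054). With 1 mouse left out at a time, the call of Epha10 was lost without WT-O2 mouse 2, 3 or 4 or KO-O2 mouse 3 (q = 0.111 to 0.239), that of Epha3 without WT-O2 mouse 2 or 3 or KO-O2 mouse 2 or 3 (q = 0.114 to 0.185), and that of Epha4 without WT-RA mouse 2, WT-O2 mouse 2, 3 or 4 or KO-O2 mouse 2 or 3 (q = 0.1005 to 0.250). Epha6 and Efna5 stayed called without any 1 mouse. The calls of Epha4 (0.46, q = 0.157) and Epha10 (-0.38, q = 0.105) were also lost with WT-O2 mouse 4, whose labels disagree, taken as room air.

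Epha5 and Epha7 did not overlap between KO-O2 and WT-O2 but missed the test in the main fit. Epha5 was at 170.0, 154, 144 and 133 CPM in WT-O2 and at 171, 194.5 and 180.3 CPM in KO-O2, where WT-O2 mouse 1 and KO-O2 mouse 1 were nearly level, and its log2 fold change was 0.28 (SE 0.13, q = 0.253). Epha7 was at 92.8, 75.7, 82.6 and 74.3 CPM in WT-O2 and at 103, 115 and 113 CPM in KO-O2. Its log2 fold change was 0.44 (SE 0.16, q = 0.142), and it was called without WT-RA mouse 4, whose spread enters the fit (0.45, q = 0.020). Epha7 was also called by DESeq2 (0.45, q = 0.067), without a filter on low counts (q = 0.0998) and with only the KO-O2 and WT-O2 mice in the fit (q = 0.0085). The same held without WT-RA mice 1 and 4 and WT-O2 mouse 4 (q = 0.051).

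Epha8 was at 14.1, 16.7, 19.2 and 26.5 CPM in WT-O2 and at 13.0, 12.6 and 11.4 CPM in KO-O2. The knockout mice were close together and below the wildtype mice, which spread widely, and the log2 fold change was -0.63 (SE 0.25, q = 0.177). It was called without WT-RA mouse 1 (q = 0.080) or WT-RA mouse 4 (q = 0.097), and with only the KO-O2 and WT-O2 mice in the fit (q = 0.066). The same held without WT-RA mice 1 and 4 and WT-O2 mouse 4 (q = 0.065). The highest mice for Epha8, WT-RA mouse 1 and WT-O2 mouse 4, were also the mice with the highest thalamic marker sums, 715 and 528 CPM. The ligands Efna3 (0.10, SE 0.06, q = 0.437) and Efna2 (-0.02, SE 0.09, q = 0.957) overlapped between genotypes in hyperoxia.

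**Figure D2:**
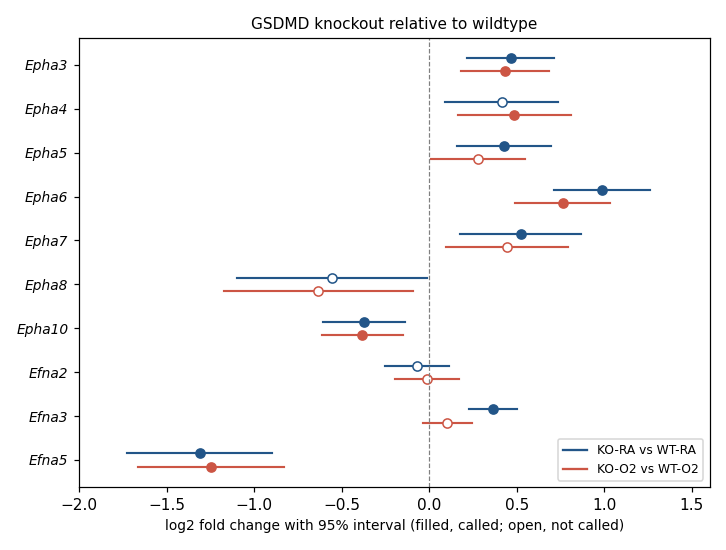
Log2 fold change of knockout against wildtype mice (x axis) for each member (y axis) in room air and in hyperoxia, with 95% intervals as lines and filled points for called genes. Epha6 and Efna5 lie furthest from 0 on either side in both exposures, with log2 fold changes of 0.99 and -1.31 in room air and 0.76 and -1.25 in hyperoxia.

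Over all 14 libraries, every one of the 6 knockout mice was above every one of the 8 wildtype mice for Epha3, Epha4, Epha5, Epha6 and Epha7. Efna5 was below in every knockout mouse, at 4.22 to 7.22 CPM (median 5.17) against 10.3 to 19.2 CPM (median 12.3). The narrowest of these gaps were those of Epha4, with a highest wildtype mouse at 317.4 and a lowest knockout mouse at 317.6 CPM, of Epha3, at 17.0 and 17.1 CPM, and of Epha5, at 170.0 and 170.9 CPM.

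The region markers moved with these results. In KO-RA against WT-RA, 4 of 4 dentate gyrus markers and 3 of 4 CA1 markers were called higher, beside 3.75% of all genes tested. There, 9 of 9 striatal, 7 of 9 thalamic and 5 of 5 oligodendrocyte markers were called lower, beside 6.7%. In KO-O2 against WT-O2, 1 of 4 and 2 of 4 were called higher, beside 2.51%. Lower calls were 9 of 9, 8 of 9 and 4 of 5, beside 4.35%. Called or not, every dentate gyrus and CA1 marker had a positive log2 fold change in both comparisons. Every striatal, thalamic and oligodendrocyte marker had a negative one. With the thalamic and striatal marker scores added to the fit as covariates, 0 members were called in either genotype comparison, and the scores shared an R squared of 0.884 with genotype. In that fit Efna5 kept its size, at -1.50 (SE 0.34, q = 0.120) in room air and -1.49 (SE 0.34, q = 0.142) in hyperoxia, whereas Epha6 was at 0.46 (SE 0.27, q = 0.643) and 0.25 (SE 0.27, q = 0.834), Epha4 at 0.07 and 0.15, and Epha8 changed sign to 0.76 (SE 0.33, q = 0.495) and 0.71 (SE 0.33, q = 0.530). The scores come from these same libraries and follow genotype closely, so this fit cannot separate the markers' part from genotype for any member. The markers' part in these results was not tested.

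**Figure D3:**
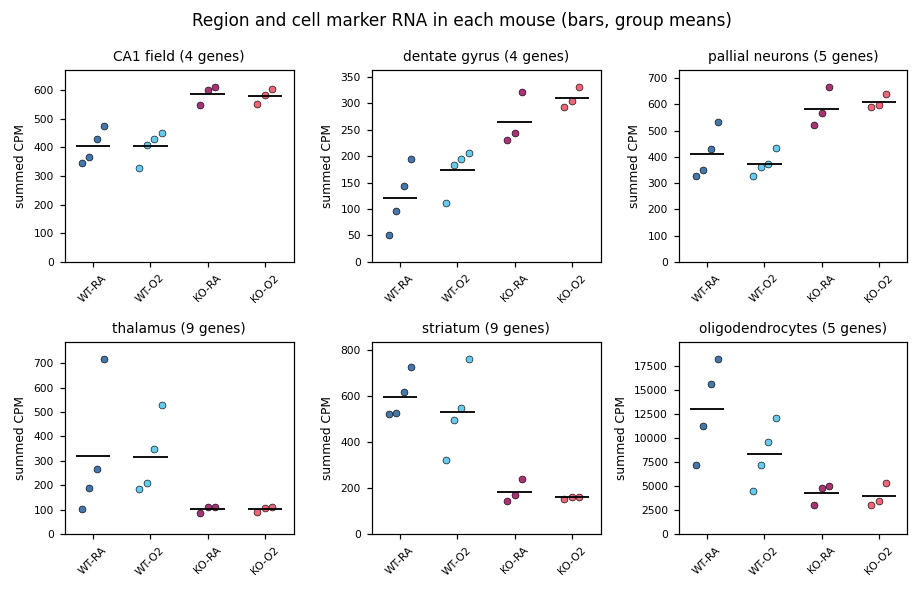
Summed CPM of marker genes (y axis, from 0) for 3 sets from the hippocampus and pallium (top) and for thalamus, striatum and oligodendrocytes (bottom), by group (x axis). Points are mice and bars are group means; CA1 and dentate gyrus sums are higher, and striatal sums lower, in all 6 knockout mice than in all 8 wildtype mice.

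The exposure was compared next, within each genotype. In WT-O2 against WT-RA mice, 0 of 10 members were called by edgeR, beside 0.643% of all genes tested, and DESeq2 called 0 members as well. Of the members, only Efna3 had an unadjusted p below 0.05, as had 12.2% of all genes. From the WT-RA values above, Efna3 moved to 53.8, 54.4, 52.4 and 50.0 CPM in WT-O2, where every mouse was above the WT-RA mice, with a log2 difference of 0.20 (SE 0.06, q = 0.189) and a ratio of 1.15. Such a lack of overlap was found in 5.99% of all genes (2.95% higher and 3.04% lower).

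Among the members, Efna5, Epha6 and Epha8 had log2 differences between WT-O2 and WT-RA that were larger in size than that of Efna3. They were -0.29 (95% interval -0.65 to 0.07), 0.25 (-0.00 to 0.51) and 0.22 (-0.27 to 0.71), and the mice overlapped in each. For Epha4 the difference was 0.05 (-0.25 to 0.35), and for Epha7 it was -0.03 (-0.36 to 0.29). It was -0.09 (-0.32 to 0.15) for Epha3, 0.16 (-0.09 to 0.41) for Epha5 and 0.13 (-0.08 to 0.34) for Epha10. Of the 10 intervals, only that of Efna2, -0.12 (-0.29 to 0.05), stayed within the fold used for calling (0.32 on the log2 scale), so for the other members a change of that size was not resolved.

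In KO-O2 against KO-RA mice, 0 of 10 members were called, beside 0.012% of all genes tested, and 0 of 10 had an unadjusted p below 0.05, beside 4.86% of all genes. DESeq2 also called 0 members. The log2 differences ran from -0.22 for Efna5 (95% interval -0.67 to 0.23) to 0.14 for Epha8 (-0.44 to 0.72). All 10 members overlapped between the groups. Since 11.8% of all genes did not, this does not set 10 members apart from other genes. Efna3, higher in wildtype hyperoxia, was at -0.06 (-0.21 to 0.08) here, and Epha6 at 0.03 (-0.26 to 0.32).

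Whether the exposure acted differently in the genotypes was tested as an interaction, for which 0 members and 0 of all genes were called by edgeR and by DESeq2 (0%), with 1 of 10 members and 4.05% of all genes below an unadjusted p of 0.05 in edgeR. That member was Efna3, with an interaction of -0.26 on the log2 scale (SE 0.09, q = 1.00). So the Efna3 difference between genotypes, called in room air and not in hyperoxia, was not shown to depend on the exposure after adjustment. The interactions of Epha6 (-0.22, 95% interval -0.61 to 0.16) and Efna5 (0.07, -0.51 to 0.64) left room for a change in either direction. The genotype and exposure comparisons share mice, so their values stand side by side and are not independent of each other.

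**Figure D4:**
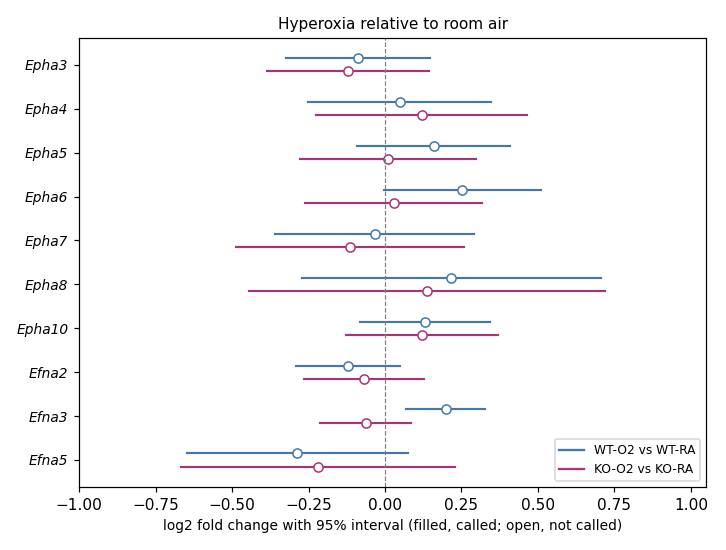
Log2 fold change of hyperoxia against room air (x axis) for each member (y axis) in wildtype and in knockout mice, with 95% intervals as lines and open points since 0 members were called. Efna3 in wildtype mice, at 0.20, has the one interval that stays clear of 0.

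In mean CPM per kb, the 4 other genes of the EphA system were near or below the lowest members. In WT-RA, Efna1 was at 1.81 and the member Epha3 at 1.75. Epha1, Epha2 and Efna1 were at mean levels of 0.137 to 0.227, 0.406 to 0.585 and 1.30 to 1.81 CPM per kb over the groups, and were called in 0 of the 4 group comparisons. Efna1 had a log2 difference of -0.48 in WT-O2 against WT-RA (SE 0.14, q = 0.173, overlapping), larger in size than that of any member. In KO-O2 against KO-RA Efna1 was at -0.31 (SE 0.16, q = 0.997), without overlap, as were 11.8% of all genes. Efna4, a ligand shared by several EphA receptors, was at 1.06, 0.538, 1.06 and 0.841 CPM in WT-O2 and at 2.04, 1.80 and 1.09 CPM in KO-O2. The lowest knockout mouse was just above the wildtype mice, and Efna4 rose by 0.90 on the log2 scale (SE 0.28, q = 0.072) at these low counts.

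There were 48 genes listed as partners of the system, which include these 4 and the EphB family. In KO-RA against WT-RA, 3 were called higher and 7 lower, beside 3.75% and 6.7% of all genes tested. In KO-O2 against WT-O2, 5 were called higher and 4 lower, beside 2.51% and 4.35%. The median log2 fold changes of the 48 genes were -0.02 and 0.00. Among the ephrin-A coreceptors, Ngfr, the p75 neurotrophin receptor that carries reverse signals in retinal axons, fell by 1.19 in room air (SE 0.37, q = 0.055, overlapping) and by 1.41 in hyperoxia (SE 0.36, q = 0.032). Ret, the coreceptor that carries ephrin-A reverse signals in motor axons, fell by 0.63 (SE 0.17, q = 0.028) and 0.52 (SE 0.17, q = 0.089). Efna5 fell in the same comparisons.

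Of 23 forward signalling genes, 1 was called higher and 2 lower in room air, and 2 higher and 0 lower in hyperoxia. These shares (13.0% and 8.70%) were close to the 10.4% and 6.86% of all genes tested. Ngef, which encodes ephexin, a signalling protein that EphA4 activates, was at 90.0, 130, 192 and 142 CPM in WT-RA and at 61.3, 71.2 and 70.9 CPM in KO-RA. It fell by 1.03 on the log2 scale (SE 0.19, q = 0.0036), in the same mice in which Epha3, Epha5, Epha6 and Epha7 rose. In hyperoxia the log2 fold change of Ngef was -0.53 (SE 0.19, q = 0.126), and it was not called. The other gene called lower in room air was Abl1, named after its values were seen. Abl1 was at 72.9 to 86.5 CPM in WT-RA and at 58.4 to 66.5 CPM in KO-RA. Chn1, named after its values were seen, was called higher in both comparisons, with no overlap. Its log2 fold change was 0.34 (SE 0.08, q = 0.016) in room air and 0.40 (SE 0.08, q = 0.0091) in hyperoxia. Nck2, an adaptor between receptor and actin, rose by 0.43 in hyperoxia (SE 0.08, q = 0.0076).

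Among 8 genes of cleavage and turnover, Inppl1, the lipid phosphatase SHIP2 that restrains EphA uptake, fell by 0.55 (SE 0.14, q = 0.021) and Ptpro, a phosphatase that acts on Eph receptors, rose by 0.48 (SE 0.09, q = 0.0049) in room air. Ptpro was also the 1 listed gene called in WT-O2 against WT-RA, from 71.7, 69.5, 69.9 and 55.9 CPM to 93.4, 85.9, 91.9 and 97.8 CPM, a log2 fold change of 0.47 (SE 0.09, q = 0.056). Of the 2 glial glutamate transporters, Slc1a3 rose in knockout mice both in room air, by 0.48 (SE 0.07, q = 0.00069), and in hyperoxia, by 0.41 (SE 0.07, q = 0.0031), and Slc1a2, named after its values were seen, rose by 0.37 in hyperoxia (SE 0.09, q = 0.030). Of the EphB family, Ephb6 fell by 0.61 in room air (SE 0.22, q = 0.094, overlapping) and Efnb2 by 0.55 in hyperoxia (SE 0.14, q = 0.028). Ephb1 and Efnb1, named after their values were seen, were also called, both without overlap. Ephb1 was at -0.45 in room air (SE 0.08, q = 0.0030) and Efnb1 at -0.41 in hyperoxia (SE 0.09, q = 0.020). In KO-O2 against KO-RA, 0 of the 48 genes were called.

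The genes whose log2 CPM profile over the 14 libraries, standardized per gene, lay nearest to each called member were found by root mean square distance. The search covered all genes tested except the members themselves, so no member could be listed. Nearest to Epha6 were Gabra5 (0.205), a GABA receptor subunit enriched in the hippocampus, Camk2a (0.210), the kinase of excitatory synapses, and Iqgap2 (0.217). Nearest to Efna5 were Chml (0.252), Pdzd2 (0.268) and Hecw2 (0.286). Atp2b1 (0.264), Plxna4 (0.277) and Clstn2 (0.281) came nearest to Epha4, and Lct (0.262), Add2 (0.299) and Sox11 (0.315) to Epha7. For Epha5 the list was Sertad4 (0.314), Tub (0.331) and Dcx (0.331), and for Efna3 it was Bid (0.359), D430019H16Rik (0.382) and Chrna7 (0.384). Epha3 and Epha10 had no gene outside the members as near, their nearest being Cir1 (0.422) and Tmem94 (0.406).

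Of the members, 3 share exonic sequence with a gene on the other strand in GENCODE M21 on GRCm38: Epha6 with Gm9017 over 107 bases, Epha10 with 1700125G02Rik over 79 bases and Efna3 with Gm15998 over 344 bases. Whether the counting used strand is not stated, so reads of these pairs may not be told apart. The counts behind the members ran from 118 for the lowest Efna5 library to 11197 for the highest Epha4 library.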

How the data were processed

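Hippocampal RNA of 14 mice was analysed, each library from a separate mouse. The values are estimated counts for each gene, as deposited by the authors. The paper states that reads were pseudoaligned with Kallisto to GRCm39 and summed to genes with tximport. Versions and strandedness are not given in the sources used here. Groups came from the labels.

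Counts were rounded, filtered with filterByExpr, normalized by TMM and fitted over all 14 libraries with a coefficient for each group (edgeR 4.0.16, R 4.3.3). The quasi-likelihood F-test was adjusted by Benjamini-Hochberg over 16637 genes. SEs were derived from the F statistic, and 95% intervals from the t distribution. DESeq2 1.42.0 was an alternative, and scripts were tested on simulated data. Log2 CPM used a prior count of 2.

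Members, lists and tests were chosen with earlier results of these data known. All 10 members are named, with the 4 remaining family genes and up to 6 called partner genes per comparison by size of change. Abl1, Chn1, Ephb1, Efnb1 and Slc1a2 were added after their values were seen. The 3 nearest genes outside the members were sought for each member called by genotype. Library depth was 27272270 to 28257496 counts, so the number of mice limits precision. Exon lengths came from GENCODE M21 on GRCm38 and promoters from RefSeq GRCm38.p6, not the build of the counts.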

Additional observations from a re-analysis of the deposited data

Results flagged for a closer look

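Among the 20 sets of 4 wildtype mice tested for a sample far from the others, 1 per member and group, 2 held one, and chance marks about 1 in 20. Epha7 in WT-RA mouse 4, at 53.8 CPM, lay far below the other WT-RA mice, which were at 90.2 to 98.2 CPM. Epha4 in WT-O2 mouse 1, at 317 CPM, lay above the other WT-O2 mice, which were at 255 to 260.5 CPM.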

How the results depend on the processing

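No paired analysis was possible because the labels give the groups no shared replicate numbers. Of the members called, Efna5, Epha6 and, in room air, Efna3 passed by the same calling rule in every alternative fit except that with thalamic and striatal covariates, and no called member changed sign. The other calls rest on few mice, so members called ranged from 3 to 8 in KO-RA against WT-RA and from 2 to 7 in KO-O2 against WT-O2 when 1 mouse was left out, and stayed at 0 in the exposure comparisons. Counts over all genes then ranged from 1076 to 1929 and from 675 to 1335, from 13 to 272 in WT-O2 against WT-RA, and from 1 to 4 in KO-O2 against KO-RA. Causes were not tested.

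Members called in room air (7) became 2 at a fold of 1.5, 0 with covariates and 5 without WT-RA mice 1 and 4 and WT-O2 mouse 4. Those in hyperoxia (5) became 2 at a fold of 1.5, 3 at q below 0.05, 3 with WT-O2 mouse 4 as room air and 0 with covariates. All genes called in WT-O2 against WT-RA (107) became 310 with DESeq2, 20 with only the groups compared, 6 with WT-O2 mouse 4 as room air, 229 with covariates, 46 at a fold of 1.5, 22 at q below 0.05 and 327 without WT-RA mice 1 and 4 and WT-O2 mouse 4, a choice made after seeing the data. Those in KO-O2 against KO-RA (2) became 13 with DESeq2, 6 without a filter, 4 with only the groups compared, 0 with the mouse moved, 5 with covariates and 4 without those mice. Those in KO-O2 against WT-O2 (1142) became 26 with covariates and 607 at a fold of 1.5, and those in KO-RA against WT-RA (1738) became 53 and 942.

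Signs turned only for members that were not called. With the mouse moved, WT-O2 against WT-RA gave 0.039 for Epha7 and -0.15 for Epha8, and the interaction 0.027 for Epha3, 0.29 for Epha8, 0.022 for Epha10, -0.049 for Efna2 and -0.052 for Efna5. With covariates, KO-O2 against KO-RA gave -0.012 for Epha5 and -0.024 for Epha6, KO-O2 against WT-O2 gave -0.10 for Epha5, 0.71 for Epha8 and -0.028 for Efna3, and KO-RA against WT-RA gave 0.76 for Epha8. By library size alone Epha5 was at -9.0e-04 in KO-O2 against KO-RA. Without the 3 mice, WT-O2 against WT-RA gave -0.050 for Epha4 and -4.4e-04 for Epha5, and the interaction 0.092 for Epha3, 0.011 for Epha5, 0.053 for Epha7, 0.044 for Epha8 and 0.044 for Epha10. With 1 mouse left out, WT-O2 against WT-RA ran from -0.092 to 0.13 for Epha4 and -0.20 to 0.054 for Epha7, KO-O2 against KO-RA from -0.042 to 0.062 for Epha5, -0.079 to 0.18 for Epha6 and -0.20 to 0.039 for Epha7, Efna2 in KO-O2 against WT-O2 from -0.059 to 0.044, and the interaction from -0.093 to 0.052 for Epha3, -0.011 to 0.22 for Epha4, -0.17 to 0.086 for Epha7, -0.35 to 0.12 for Epha8, -0.083 to 0.11 for Epha10 and -0.10 to 0.26 for Efna5.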
